A study of Mus musculus with 2 samples.

Results

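Imprinted genes are expressed from 1 parental copy only, chosen by DNA methylation that is set in the egg or the sperm. Many lie in clusters in which a differentially methylated control region and a long noncoding RNA govern several genes at once. As a class they are known for the control of fetal and placental growth, and the paternally and maternally expressed members often act in opposite directions.

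The set described here holds 39 imprinted genes outside the insulin-like growth factor axis, of 43346 Ensembl genes in the tables. They were found by symbol and grouped by 16 genomic loci, 7 of them clusters with several members and 9 single loci. There were 34 protein-coding and 5 noncoding genes. The libraries carry no measure of parental allele. Statements on paternal or maternal expression below are background, and both copies are summed in every value.

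The samples were 2 total RNA libraries of whole liver from B6NCrl mouse embryos at embryonic day 16.5, a stage when the organ is both liver and main site of blood formation. They form 1 group with 2 biological replicates, each a pool of male and female embryos with no treatment or transgene named, so no comparison between conditions exists. The pool of replicate 2 came from 41 embryos, and no number is given for replicate 1. Both pools carry the same donor identifier, so the spread between them may in part be technical. Per the labels, the RNA was longer than 200 nt, the input was 10 ng and spike-in RNA was added. No strand-specific step is named, so it is not known whether reads of a gene and of its antisense partner were told apart. Expected counts, the estimated reads per gene, summed to 44477766 in replicate 1 and 48820712 in replicate 2. Levels are in TPM, the share of transcripts after correction for length, so genes can be compared. Values after ± are SDs of the 2 libraries (n = 2).

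Markers of the tissue were high in both libraries. All 8 hepatocyte markers and all 7 erythroid markers stood above 10 TPM, from Afp at 13648 to Hnf4a at 17.5 and from Alas2 at 1284 to Gata1 at 91.2. The megakaryocyte (5 of 5 genes at 1 TPM or more, Pf4 215 to Gp1ba 2.69), stellate and mesenchymal (8 of 8, Col3a1 92.77 and 109.41, Lrat lowest at 1.86), endothelial (6 of 6, Lyve1 22.5 to Emcn 2.27) and mesothelial lists (3 of 5, Upk3b 4.30 to Lrrn4 0.780) were lower. The libraries differed in markers of other tissue. The summed TPM of 6 muscle markers, led by Acta1 at 129 with Myod1 lowest at 0.460, was 143 in replicate 1 and 336 in replicate 2. Markers of neighbouring organs (13 genes, 2 at 1 TPM or more, Cpa1 highest at 5.46, Nkx2-1 and Nkx2-5 at 0) summed to 4.53 and 15.6, and 6 cholangiocyte markers (3 at 1 TPM or more, Spp1 19.6 to Cftr 0.0550) to 23.9 and 40.1. The 7 neural markers, none at 1 TPM (Tubb3 highest at 0.435), summed to 0.790 and 1.64. Of 5 placental and yolk sac markers 4 were at 0, Tpbpa among them, and the fifth, Rhox5, stood at 0.995. In bulk tissue, fewer cells of a type and less RNA per cell cannot be told apart.

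The sequences before the starts bear on the transcript results below, since several of these genes have starts with different imprints. Promoter windows of RefSeq (build GRCm38.p6, which is mm10), 250 bases before and 50 after a start, were found for 33 of the 39 genes, 46 windows in all. The median window of the set held 15 CpG dinucleotides, the sites of DNA methylation, against 7 over all 32851 windows. Shown are 5 starts of Mest, Grb10, Gnas and Meg3, abundant genes chosen after their values were seen. The 250 bases before each start lie in no annotated exon. CpG is in capitals, and each runs 5′ to 3′ on the strand of the gene.
Mest, lower start, chr6:30737800-30738049, plus strand: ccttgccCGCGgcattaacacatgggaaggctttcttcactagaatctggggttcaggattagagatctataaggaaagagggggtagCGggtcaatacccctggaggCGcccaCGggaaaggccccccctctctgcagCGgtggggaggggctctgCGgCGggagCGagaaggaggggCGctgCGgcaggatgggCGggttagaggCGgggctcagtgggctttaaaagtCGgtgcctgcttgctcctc
Grb10, upper start, chr11:12037421-12037670, minus strand: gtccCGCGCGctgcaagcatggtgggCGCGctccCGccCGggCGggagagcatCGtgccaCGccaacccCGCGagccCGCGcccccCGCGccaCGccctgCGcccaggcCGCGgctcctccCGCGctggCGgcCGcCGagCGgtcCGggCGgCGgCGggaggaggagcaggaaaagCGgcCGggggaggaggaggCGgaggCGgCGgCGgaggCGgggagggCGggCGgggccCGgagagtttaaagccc
Grb10, lower start, chr11:12027972-12028221, minus strand: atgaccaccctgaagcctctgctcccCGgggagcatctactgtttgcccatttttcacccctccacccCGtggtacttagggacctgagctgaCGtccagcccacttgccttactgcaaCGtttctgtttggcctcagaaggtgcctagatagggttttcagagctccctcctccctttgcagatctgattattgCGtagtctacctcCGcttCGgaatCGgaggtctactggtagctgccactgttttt
Gnas, first (Nesp) start, chr2:174284070-174284319, plus strand: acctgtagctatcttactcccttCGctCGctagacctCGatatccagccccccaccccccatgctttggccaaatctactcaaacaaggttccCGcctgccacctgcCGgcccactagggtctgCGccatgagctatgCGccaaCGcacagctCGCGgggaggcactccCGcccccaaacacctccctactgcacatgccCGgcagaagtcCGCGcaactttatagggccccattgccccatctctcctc
Meg3, first start, chr12:109540746-109540995, plus strand: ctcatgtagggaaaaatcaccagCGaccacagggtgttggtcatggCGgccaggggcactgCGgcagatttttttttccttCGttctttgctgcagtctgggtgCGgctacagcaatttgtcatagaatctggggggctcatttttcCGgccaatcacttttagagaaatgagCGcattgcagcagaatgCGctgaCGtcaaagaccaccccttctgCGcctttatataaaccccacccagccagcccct
The upper Grb10 sequence held 40 CpG in 250 bases, with a GC share of 81.2%, and the lower one 8, with 54.0%. Mest and the Nesp start of Gnas held 14 each, and Meg3 10. The hexamer TGCCGC, which the zinc finger protein ZFP57 binds when it is methylated, was searched on both strands (as GCGGCA on the other). It was in 11 of the 46 member windows (23.9%) and in 11.6% of all windows. These windows belong to 10 of the 33 genes, and Mest counts with a pair of windows 3 bases apart that hold the same matches. In the sequences shown, Mest held 2 matches, whose first bases lie 242 and 67 bases before the start, and Meg3 1, at 190 bases. The hexamer itself holds a CpG, and member windows were richer in CpG (median 15 against 7). The shares were not matched for CpG. A match is a run of letters and was not tested for binding.

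Of the 39 genes, 28 (71.8%) reached 1 TPM in both libraries, where 27.9% of all Ensembl genes did. The set is mostly protein-coding, so the closer background is 52.2% of protein-coding genes, against 24 of the 34 coding members (70.6%). Of the noncoding members 4 of 5 reached 1 TPM, where 6.18% of long noncoding genes did. A level of 10 TPM was reached by 16 members (41.0%, against 26.4% of protein-coding genes and 13.6% of all) and one of 100 TPM by 6 (15.4%, against 3.98% and 2.12%). The median member stood at 6.96 TPM in replicate 1 and 6.22 in replicate 2, the median protein-coding gene at 1.41 and 1.57. The genes were chosen with their levels known, so these counts describe the set.

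The 6 genes above 100 TPM were Dlk1 (mm10, chr12:109452823-109463336, plus strand), Meg3 (chr12:109541001-109571726, plus), Mest (chr6:30723547-30748465, plus), Cd81 (chr7:143052739-143067934, plus), and Grb10 and Gnas, located below. The 3 highest held 51.2% ± 0.719 of the 1750 TPM that the members summed to, and the 10 highest 90.8% ± 0.251. At the other end, 11 members stayed below 1 TPM in both libraries. Of the summed member TPM, 42.9% came from the Dlk1-Dio3 cluster, 16.5% from the Kcnq1 cluster, 11.7% from Grb10, 10.0% from Gnas and 9.58% from Mest with Copg2.

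**Figure D1:**
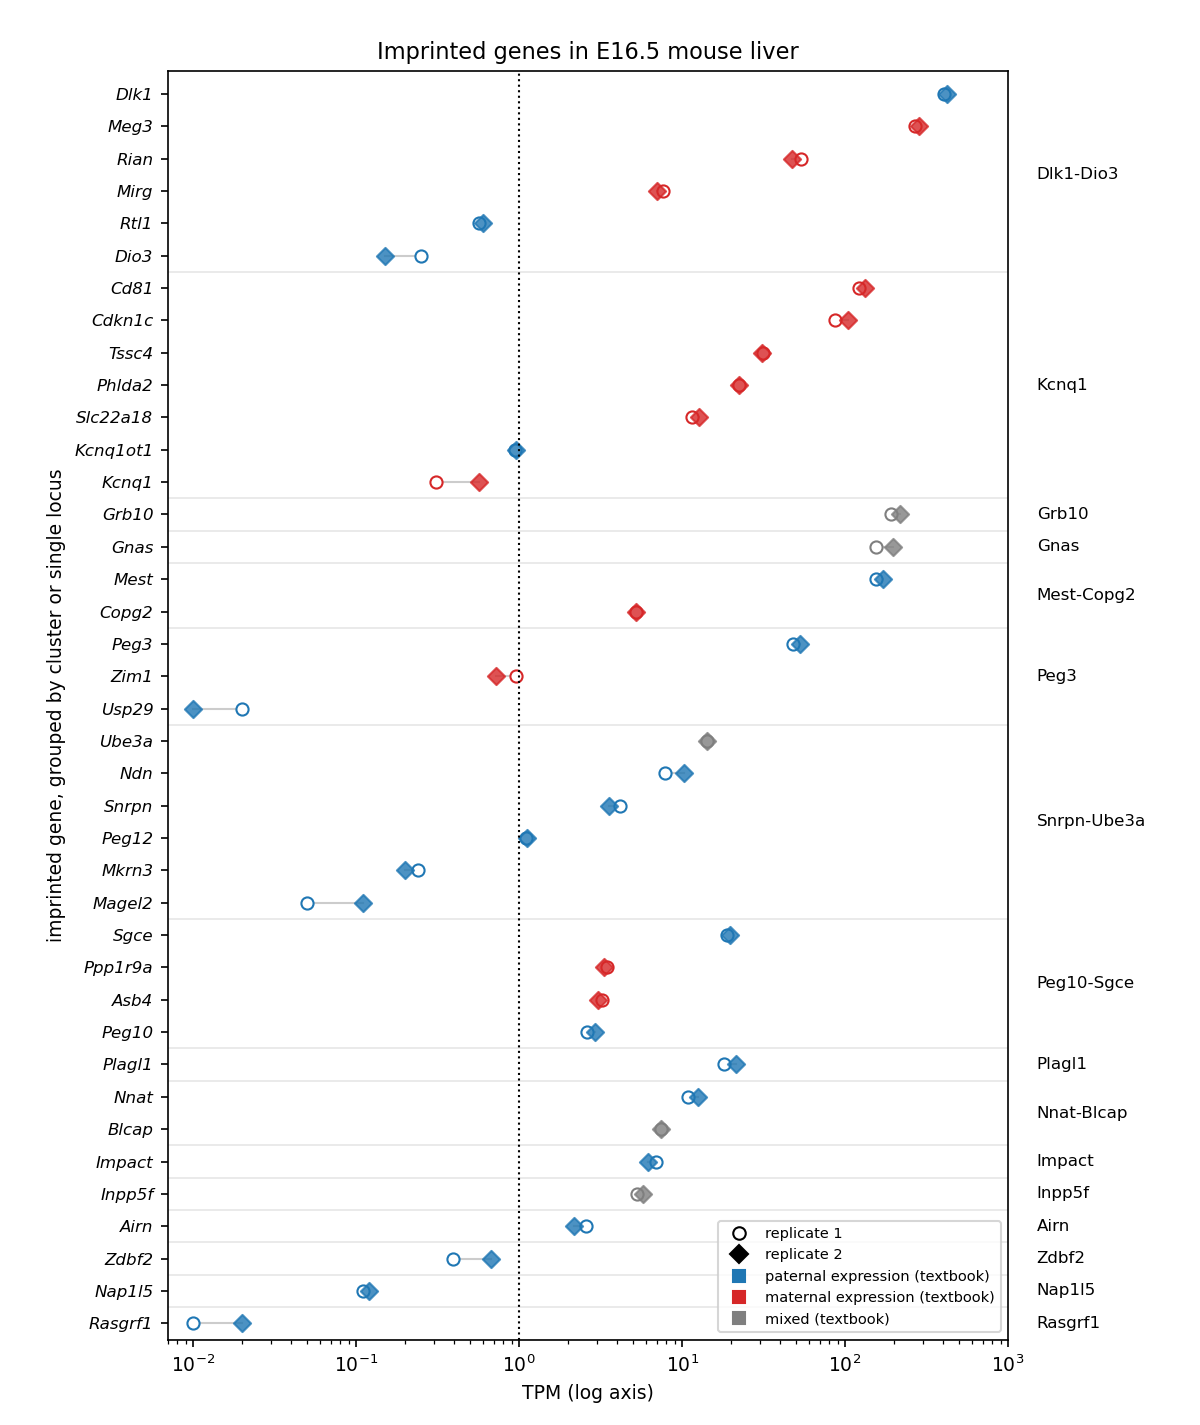
TPM of the 39 imprinted genes on a log axis, 1 row a gene, grouped by cluster or single locus (right) in order of summed TPM. Open circles are replicate 1 and diamonds replicate 2, coloured by the simplified textbook parental class, and the dotted line marks 1 TPM. Values run from Dlk1 at 406.91 and 424.71 to Usp29 and Rasgrf1 at 0.02 or below.

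The parental classes are simplified from textbook knowledge. Genes counted as maternally expressed include some, such as Cd81 and Tssc4, that are known to be imprinted mainly in placenta. By class, the 21 paternally expressed members held 40.5% ± 0.644 of the member TPM, the 13 maternally expressed ones 36.3% ± 0.720 and the 5 classed as mixed (Grb10, Gnas, Ube3a, Blcap, Inpp5f) 23.2% ± 1.36. Grb10 alone held 11.7%, so the order of the paternal and maternal shares depends on its being classed as mixed and not as maternal. The paternal share rested largely on 1 gene. Without Dlk1 it was 21.9%. The maternal share was led by Meg3, at a mean of 276 TPM, and was not worked out without it. The median paternally expressed member stood at 2.38 ± 0.290 TPM and the median maternally expressed one at 12.1 ± 0.856, and 12 of 21 against 11 of 13 reached 1 TPM.

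The Dlk1-Dio3 cluster spans 828 kb of chromosome 12 (109452823 to 110281097). It carries the paternally expressed coding genes Dlk1, Rtl1 and Dio3 and the maternally expressed noncoding RNAs Meg3, Rian and Mirg. Dlk1, a transmembrane protein with EGF repeats that marks hepatoblasts, stood at 406.91 TPM in replicate 1 and 424.71 in replicate 2. It was the highest member and ranked 218 of all genes by mean TPM. Meg3 followed at 268.78 and 283.12 TPM. The ratio of Meg3 to Dlk1 was 0.661 and 0.667, nearly the same in both libraries.

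The other noncoding members of the cluster were lower than Meg3. Rian, a host of C/D snoRNAs, stood at 53.59 and 47.35 TPM, and Mirg, a host of microRNAs, at 7.61 and 6.98. The ratio of Rian to Meg3 was 0.183 ± 0.0227 and that of Mirg to Meg3 0.0265 ± 0.00259. All 3 noncoding RNAs stood apart from each other by more than the spread between libraries. Dio3, the deiodinase that inactivates thyroid hormone, was low, at 0.25 and 0.15 TPM on 14 and 13 counts. All its counts went to a model of 1449 nt in replicate 1 and to one of 2030 nt in replicate 2.

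**Figure D2:**
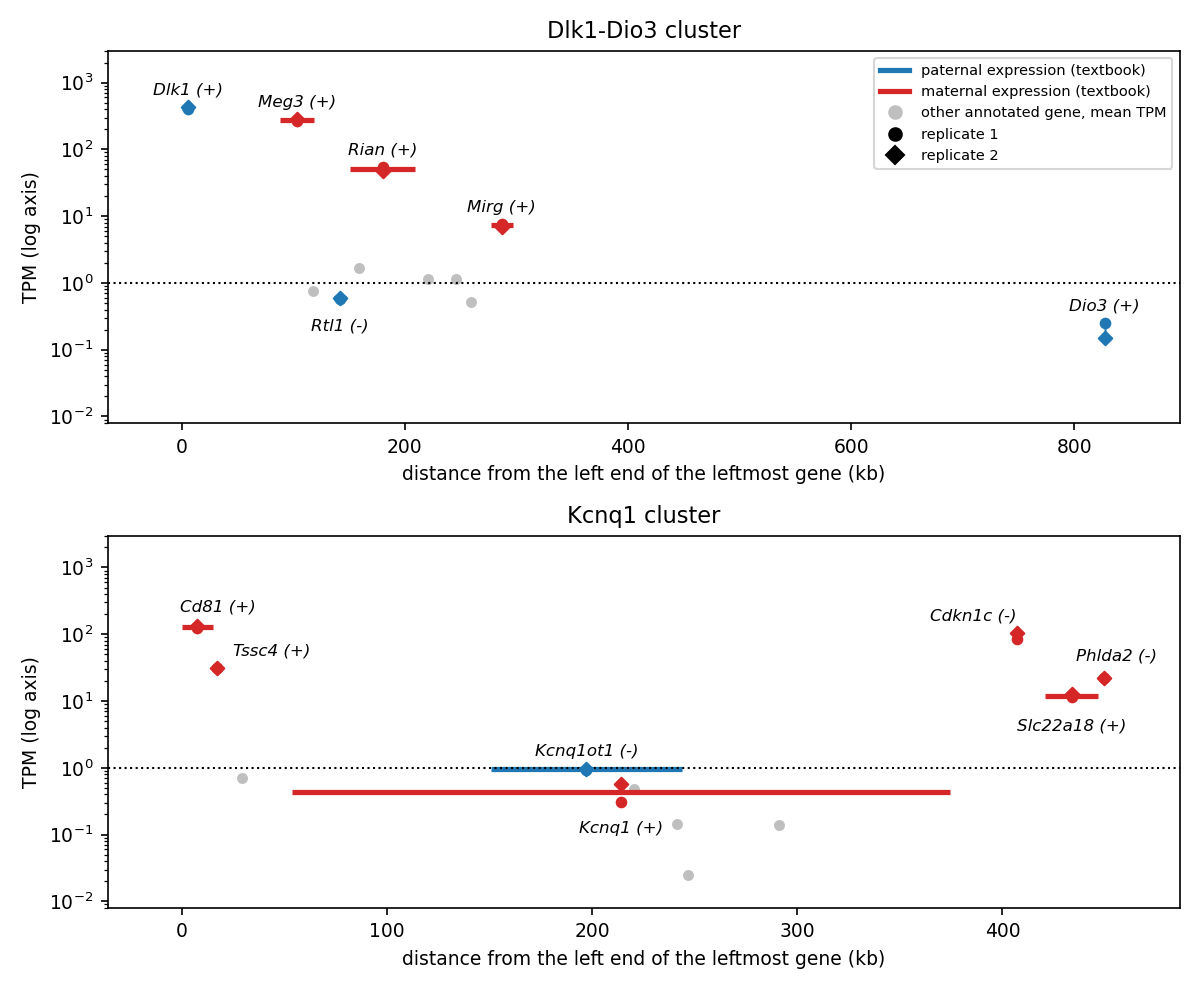
TPM on a log axis against distance in kb for the Dlk1-Dio3 cluster (upper) and the Kcnq1 cluster (lower). Bars span each member gene at its mean TPM, circles and diamonds are replicates 1 and 2, grey points are other annotated genes of the span with a mean TPM above 0, and + or - is the strand. From left to right Dlk1, Meg3, Rian and Mirg step down from 416 to 7.29 mean TPM, and in the lower panel the other 5 members lie above Kcnq1ot1 and Kcnq1, which overlap.

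Within Rian and Mirg, TPM was not held by transcripts from the first start. Starts within 500 bases of each other were taken as 1 group. The first start of Rian held 1.15% of its TPM, and the starts 42.2, 45.2 and 46.7 kb after it held 39.1%, 23.4% and 24.8%. In Mirg the first start held 6.50%, and those 8.02 and 18.2 kb after it 30.5% and 35.4%. Meg3 was different, with 86.8% ± 2.31 from its first start, the one whose sequence is shown above, and a leading transcript at 69.1%. Dlk1 had 85.6% ± 0.144 from a start 0.632 kb after its first, and 13.1% from Dlk1-209, a model of 483 nt with 873.68 and 961.65 of the counts. The models of Rian and Mirg are short pieces of long primary RNAs, so these shares do not describe where transcription starts. The shares are per length, so short models weigh more in them than by counts. Rian-208, the model of 352 nt at 45.2 kb, had 134.72 and 126.96 counts, and the group at 42.2 kb had 2356 and 2182. In Mirg the order reversed by counts, with 181 and 171 at 8.02 kb against 73 and 82 at 18.2 kb.

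Rtl1 is a retrotransposon-derived gene best known in placenta. As background, microRNAs from the maternal copy of the other strand match its messenger RNA in full and cleave it. Rtl1 stood at 0.57 and 0.60 TPM, on 150 and 170 counts over 6357 nt. Its exons overlap the annotated exons of opposite-strand genes for 8.12% of their bases. Whether reads of those were told apart from its own is not known. Of 114 mature microRNAs of the cluster in RefSeq, 11 from 6 hairpin genes were exact reverse complements of a stretch of its annotated transcript, with 11 different seeds. The 3p arm of each hairpin, or its only listed form, shows the match, with the seed (bases 2 to 8) in capitals.
miR-136-3p: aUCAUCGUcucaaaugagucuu
miR-432: uCUUGGAGuagaucagugggcag
miR-434-3p: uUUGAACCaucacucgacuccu
miR-127-3p: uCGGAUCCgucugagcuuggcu
miR-433-3p: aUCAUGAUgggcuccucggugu
miR-431-3p: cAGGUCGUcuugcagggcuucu
In this order their sites begin at bases 164, 523, 965, 2642, 3749 and 5028 of the 6358 bases of that transcript, counted from its 5′ end, so they are spread along most of the transcript. MicroRNA levels were not measured, since the libraries hold RNA longer than 200 nt. The span holds 59 microRNA and 23 snoRNA genes in the annotation. Of these small RNA genes 72 of 82 had no effective length in the tables and 3 had any counts, such as Mir1188 with 2 and 1. Among other genes of the span, B830012L14Rik and Gm37899 stood at 1.13 TPM each, and Gm26906, antisense to Meg3, at 0.745.

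The Kcnq1 cluster on chromosome 7 (143052739 to 143503150, 450 kb) held the next largest share, and 6 of its 7 members were classed as maternally expressed. Cd81, a tetraspanin of the cell surface, stood at 122.03 and 132.29 TPM. Cdkn1c, the cyclin-dependent kinase inhibitor p57, stood at 86.23 and 104.80. Its intervals did not overlap between the libraries, and replicate 2 was higher by 1.20-fold after centring. Of the exonic bases of Cdkn1c 30.7% lie in exons of opposite-strand genes, mostly Gm44732.

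Phlda2, a small protein with a pleckstrin homology domain that limits placental growth, stood at 22.42 and 22.22 TPM, and the transporter gene Slc22a18 at 11.48 and 12.69. The libraries hardly differed in Phlda2 and Tssc4, the latter at 31.43 and 30.73. The order Cd81, Cdkn1c, Tssc4, Phlda2, Slc22a18 was the same in both libraries, with gaps larger than the spread of each gene. Tssc4 shares 11.9% of its exonic bases with Trpm5 on the other strand, a gene at 0.715 TPM.

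Kcnq1ot1 is the paternally expressed antisense RNA that silences the cluster in cis, and it is transcribed from an intron of Kcnq1. It shows how much the scale matters for a very long RNA. It had 3350.84 and 3675.96 expected counts, rank 11 of the 39 members, but over 84395 nt these were 0.94 and 0.96 TPM, rank 29. Of its exonic bases 100% lie within opposite-strand genes. Whether unspliced reads of those were told apart from its own is not known, which also limits its ratios. Kcnq1 itself, a potassium channel subunit, stood at 0.31 and 0.57 TPM on 38.74 and 45.75 counts. That TPM lies below its own deposited interval in both libraries, and the posterior mean TPM was 1.18 and 1.38. The ratio of Kcnq1ot1 to Kcnq1 was 2.36 ± 0.953 by TPM and 0.738 by posterior mean TPM, and the order of the pair per length differed between these estimates. Cdkn1c exceeded Kcnq1ot1 100-fold ± 12.3 by TPM and 2.14-fold ± 0.274 by counts.

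Grb10, on chromosome 11 (11930508 to 12038683), encodes an adaptor that binds the insulin and IGF1 receptors and restrains growth. As background, it is maternally expressed from its upper start in most tissues and paternally expressed from lower starts in brain. Grb10 stood at 190.89 and 217.33 TPM and led the members by counts, with 36408 and 43069. The upper start, 1.28 kb after the first annotated one and with 40 CpG in the sequence above, held 81.9% ± 3.85 of its TPM through 1 transcript. The start 10.7 kb after the first, with 8 CpG in the sequence above, held 7.15% ± 1.26. That group stood at 11.95 and 17.47 TPM. A further 10.2% ± 2.62 came from a pair of models that start within 500 bases of each other farther down, nearly all of it from Grb10-207, a model of 430 nt with 220.35 counts in replicate 1. Both lower groups had the smaller share in replicate 1.

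Gnas, on chromosome 2 (174284320 to 174346744), encodes the stimulatory G protein alpha subunit from its main start. As background, it has further starts upstream: Nesp, expressed from the maternal copy, and the extra-large form and exon 1A, expressed from the paternal copy. Gnas stood at 155.08 and 196.59 TPM, and replicate 2 was higher by 1.25-fold after centring. The main start, 45.8 kb after the first, held 89.2% ± 2.05 through Gnas-208 (44.9%), Gnas-206 (24.9%) and Gnas-207 (19.5%). The group 43.2 kb after the first start, at the place of exon 1A, held 7.15% ± 2.45, the Nesp start 2.53% ± 0.269 and the extra-large group, 13.5 kb after the first, 0.326% ± 0.115. By level, the Nesp group stood at 3.63 and 5.35 TPM. Its antisense RNA Nespas, a gene outside the set that was chosen after its values were seen, was at 2.06 and 2.11 TPM. Gnas shares 1469 exonic bases with Gm20721 on the other strand.

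The annotated exons of Mest and Copg2 overlap on chromosome 6. Mest, a protein of the alpha/beta hydrolase fold expressed from the paternal copy, stood at 155.25 and 169.78 TPM. Copg2, a coatomer subunit, stood at 5.21 and 5.23. The ratio was 31.1 ± 1.88, so the neighbours differed by far more than the replicates. They share 912 exonic bases on opposite strands, which is 23.1% of those of Mest and 17.8% of those of Copg2. Of the TPM of Mest, 98.0% ± 0.863 came from the lower start whose sequence is shown above, 14.5 kb after the first and 0.554% ± 0.565 from the first. As background, the lower start is the imprinted one.

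**Figure D3:**
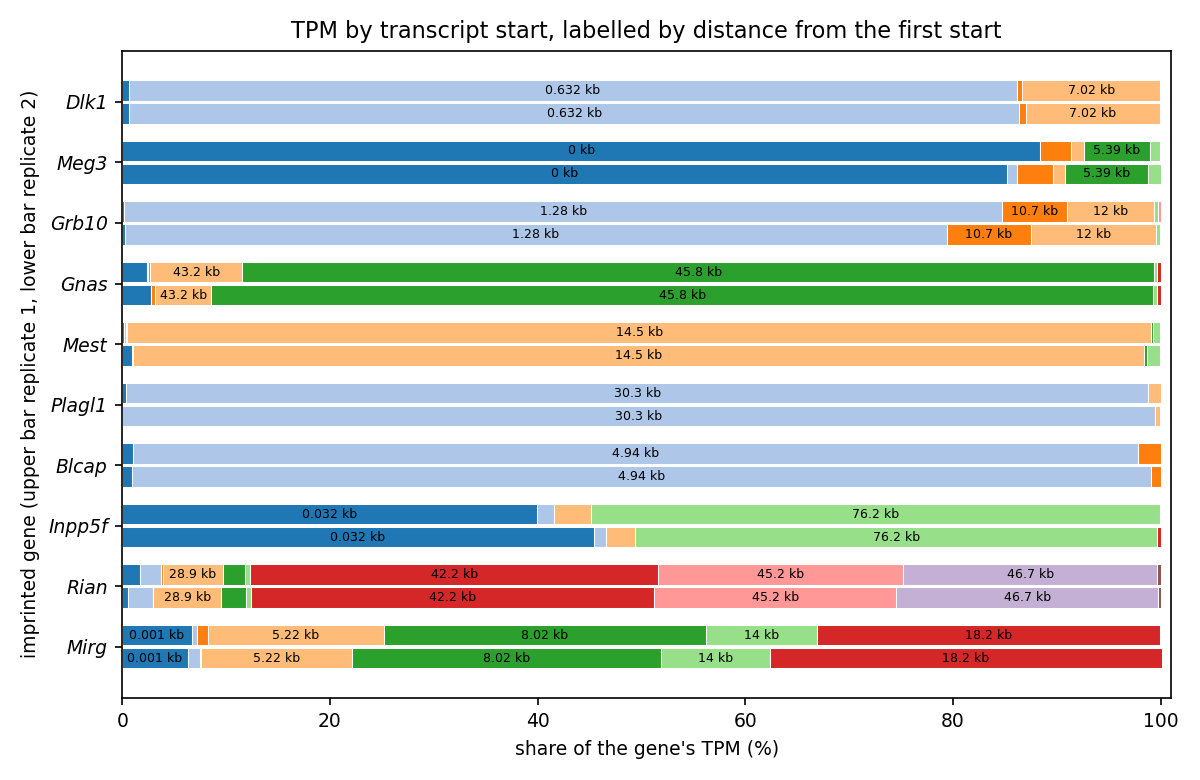
Share of each gene's TPM by group of transcript starts, for 10 imprinted genes, with replicate 1 above and replicate 2 below. Segments run from the first to the last start in the direction of transcription and are labelled, from 5% up, with the distance in kb of the leading transcript's start from the first start. Mest, Plagl1 and Blcap are nearly 1 colour, Inpp5f is split between its first start and one 76.2 kb after it, and Rian and Mirg are spread over many starts.

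Further genes also used 1 start of several. Plagl1, a zinc finger transcription factor that is paternally expressed, stood at 18.14 and 21.51 TPM, with 99.0% ± 0.804 from a start 30.3 kb after its first. Its TPM lay just below its own deposited interval in both libraries (18.3 to 21.3 and 21.6 to 24.4). The intervals of the libraries were apart, with replicate 2 higher by 1.16-fold after centring. Blcap stood at 7.46 and 7.37 TPM, with 97.4% ± 0.932 from a start 4.94 kb after its first. Nnat, neuronatin, a paternally expressed proteolipid in an intron of Blcap, stood at 10.87 and 12.46. The ratio of Nnat to Blcap was 1.57 ± 0.165 by TPM, but 0.948 by counts, which are not per length.

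Inpp5f was split mainly between a pair of starts. This phosphoinositide phosphatase gene stood at 5.30 and 5.75 TPM. Its first start held 42.6% ± 3.89, and Inpp5f-208, which starts 76.2 kb after it and is known as background for paternal expression in brain, 52.5% ± 3.22. By TPM the later start held the larger share in both libraries (54.8% and 50.3%), and by posterior mean TPM it held 52.0% and 48.0%. By counts, which are not per length, the first start had more, 359 and 438 against 307 and 330. By level Inpp5f-208 stood at 2.90 and 2.89 TPM. Over the 23 members at 1 TPM or more with several transcripts, the leading transcript held at least 50% in 18 (78.3%), where 77.6% of such genes did. The leading transcript differed between libraries in 2 of these 23, Mirg and Ppp1r9a, and the share over all genes was not worked out.

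The Peg3 cluster on chromosome 7 was led by Peg3, a zinc finger protein expressed from the paternal copy, at 48.02 and 53.13 TPM. Usp29, a ubiquitin protease gene that starts next to Peg3 on the other strand, had 2 and 1 counts, below the 3 that were taken as the limit for a gene with none. The ratio of Peg3 to Usp29 was 2538 in replicate 1 (exact Poisson 95% interval of the Usp29 count, 703 to 20958) and 6068 in replicate 2 (1089 to 239678), which covers counting error only. These ratios use the Usp29 TPM worked out from its counts, since the deposited TPM is rounded to 0.02 and 0.01 and would give 2401 and 5313. The only Usp29 transcript in the tables is a model of 2610 nt, and exons outside it were not counted. Zim1, a maternally expressed zinc finger gene, stood at 0.96 and 0.72 TPM. Of the 3 members, Peg3 was the only one to reach 1 TPM.

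In the Snrpn-Ube3a cluster, known because the matching human region is lost in Prader-Willi and Angelman syndromes, levels were modest. Ube3a, a ubiquitin ligase that is imprinted in neurons and uses both copies elsewhere, stood at 14.22 and 14.29 TPM. Ndn, a MAGE family protein, stood at 7.86 and 10.32, and Snrpn, a core protein of spliceosomal particles, at 4.17 and 3.54. On the log2(TPM + 1) scale Ndn was higher in replicate 2 by 0.34 and Snrpn lower, at −0.21. The ratio of Snrpn to Ube3a was 0.270 ± 0.0322. Of the exonic bases of Ube3a 27.3% lie in exons of opposite-strand genes. Those of Ndn lie wholly within an opposite-strand gene, though in none of its exons.

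The small intronless genes of that cluster differed widely. Peg12 stood at 1.10 and 1.12 TPM, Mkrn3 at 0.24 and 0.20 and Magel2, a further MAGE family gene, at 0.05 and 0.11. Magel2 rests on 9 and 22 counts, and the ratio of Ndn to it was 157 and 93.8. Like Ndn, Magel2 lies wholly within an opposite-strand gene. All Snrpn TPM came from the start 135 kb after its first annotated one. Other genes of the same strand share 27.3% of its exonic bases, and its counts are not whole numbers, so part of its level depends on how reads were divided. Snurf, annotated within the span of Snrpn on the same strand, stood at 3.79 and 5.03 TPM over 216 nt. Snhg14, the long RNA that continues past Snrpn towards Ube3a, was at 2.14 and 1.52.

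The Peg10-Sgce cluster on chromosome 6 had all 4 members above 1 TPM within a 6.94-fold range. Sgce, epsilon-sarcoglycan, stood at 18.77 and 19.54 TPM, and Peg10, a retrotransposon-derived gene needed in placenta that starts beside it on the other strand, at 2.61 and 2.91. The ratio of Peg10 to Sgce was 0.144 ± 0.00698. The maternally expressed Ppp1r9a (3.48 and 3.34) and Asb4 (3.22 and 3.04) lay close together, and their intervals overlapped in both libraries. The 3 paraoxonase genes between them were higher than both, Pon2 at 42.21 and 39.25, Pon3 at 22.31 and 23.19 and Pon1 at 13.70 and 16.71 TPM.

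Of the remaining single loci, Impact, which restrains the translation regulator GCN2, stood at 6.96 and 6.22 TPM and Airn at 2.59 and 2.18. Airn is a long, largely unspliced antisense RNA, and its annotated exons cover 3.03% of its span, and reads from the unspliced rest are not in its counts. The last 3 genes are best known from brain. Zdbf2 stood at 0.39 and 0.67 TPM on 45 and 108 counts. Of that TPM 78.3% came from Zdbf2-203, a model of 611 nt with only 6.86 and 11.75 of the counts. Nap1l5 stood at 0.11 and 0.12 on 8 and 10 counts, and Rasgrf1, an exchange factor for Ras, at 0.01 and 0.02 on 2 and 3. Rasgrf1 did not pass the 3 counts taken as the limit for a gene with none, which are worth 0.0178 and 0.0157 TPM.

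By fold, the imprinted genes differed little between the replicates, as did all genes. After genes averaging fewer than 10 counts were set aside, 36 members were left, and 0 of them passed 1.5-fold in either direction, where 1.46% of all such genes were higher and 0.437% lower in replicate 2 by that measure. The members were higher in replicate 2 in 19 cases and lower in 17, where 51.8% of all genes were higher. They ranged from 0.34 on the log2 scale for Ndn to −0.21 for Zim1 and Snrpn, with a median of 0.02 beside 0.01 over all 16258 genes. Scaled to the spike-ins, all 36 were lower in replicate 2, as the median of all genes then moved to −0.35. Without the spike-ins, on the median-centred scale, the next values after Ndn were those of Gnas (0.32), Cdkn1c (0.26), Zdbf2 (0.25), Kcnq1 (0.24) and Plagl1 (0.22). The order depends on the pseudocount, since adding 1 TPM shrinks the differences of low genes. With a pseudocount of 0.1, Kcnq1 and Zdbf2 passed 1.5-fold, and on counts Magel2 and Zdbf2 did, while Ndn did not. The difference of Kcnq1 rests mainly on a model of 282 nt with 2 counts in replicate 2 and 0 in replicate 1.

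The deposited TPM intervals gave a further view. They lay apart in 11 members, 10 of them higher in replicate 2 (27.8% of 36, against 12.2% of all genes) and 1, Rian, lower (2.78% against 8.40%). The 10 were Dlk1, Meg3, Grb10, Gnas, Mest, Cd81, Cdkn1c, Peg3, Plagl1 and Ndn. These intervals cover counting and assignment error only, are narrowest for abundant genes, and lie apart for some differences as small as the 1.03-fold of Dlk1. Replicate 2 also had more RNA of muscle (2.35-fold by summed TPM), neighbouring organ (3.45-fold), cholangiocyte (1.68-fold) and stellate or mesenchymal markers (1.22-fold). Their part in the higher values of these 10 genes was not tested.

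**Figure D4:**
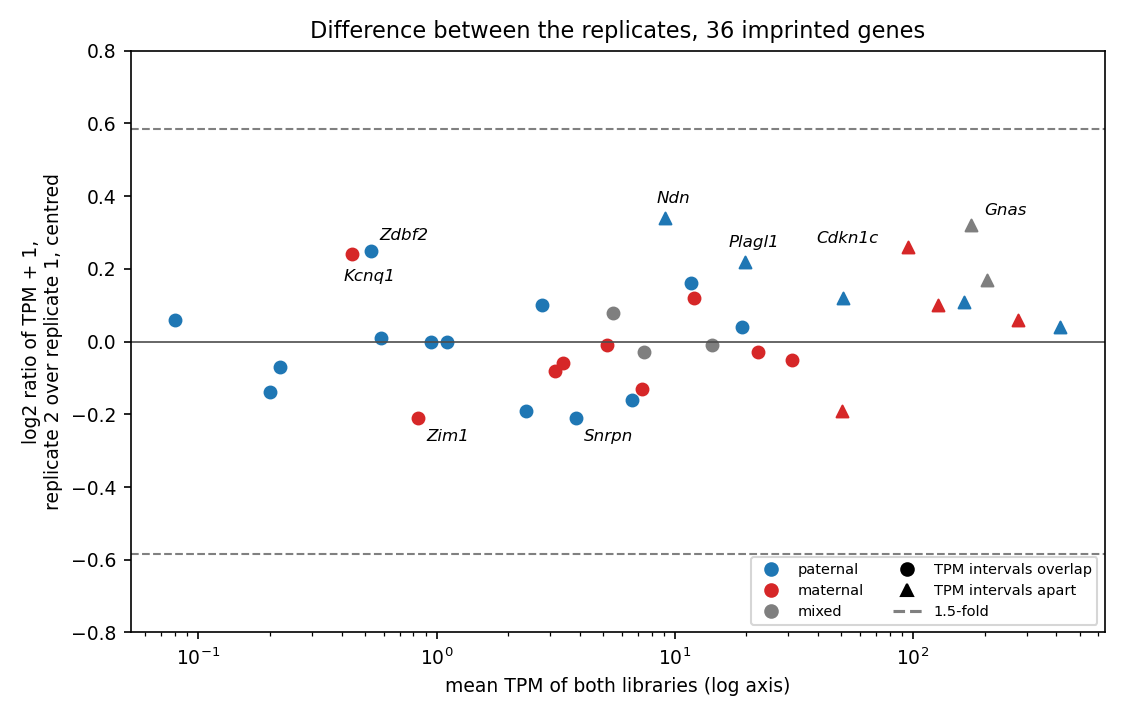
Centred log2 ratio of TPM + 1, replicate 2 over replicate 1, against mean TPM (log axis) for the 36 imprinted genes averaging 10 counts or more. Triangles are genes whose deposited TPM intervals lie apart, colours are textbook parental classes, and dashed lines mark 1.5-fold. All points lie between the lines, from Ndn at 0.34 to Zim1 and Snrpn at −0.21.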

How the data were processed

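Gene and transcript tables were deposited for each library, on mouse build mm10 with GENCODE M4, per the file headers and a deposited note. The column names are those of RSEM, and its version is not stated in the sources used here. The deposited expected counts are estimated counts, in which reads shared by several transcripts are divided. The deposited TPM values are per length, and posterior mean TPM is the authors' alternative estimate of the same level. The deposited interval bounds of TPM, held as signal values, carry no stated level.

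Symbols and coordinates came from GENCODE M21 on the same build, matched for 42462 of 43346 Ensembl genes, and promoter and microRNA sequences from RefSeq (GRCm38.p6). All 39 members are named, of genes inside each cluster span only such as are among the 5 highest, of other imprinted genes the 6 highest (and Nespas and Kcnk9, chosen after their values were seen), all imprint maintenance genes, and of each cell type list the highest and lowest, apart from 1 gene that is not reported here. The members and lists were chosen with earlier results of these data known.

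For the replicates, log2(TPM + 1) of replicate 1 was taken from that of replicate 2, and the median over genes averaging at least 100 counts was subtracted. Genes averaging under 10 counts were left out, and 1.5-fold was the call. With 1 library against 1 there is no p-value. The comparison was tested on simulated data, in which only genes averaging at least 100 counts were changed, so genes of fewer counts were not covered. Alternatives were other thresholds, pseudocounts and count filters, posterior mean TPM, scaling to the spike-ins, each replicate alone, and, on rounded expected counts, TMM factors (edgeR 4.0.16) and size factors (DESeq2 1.42.0, R 4.3.3). Other steps used python 3.11.15, numpy 2.4.6, pandas 2.3.3 and matplotlib 3.10.9.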

Additional observations from a re-analysis of the deposited data

How the results depend on the processing

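The number of members at 1 TPM or more, 28, ranged from 27 to 35 over other thresholds, posterior mean TPM, rescaled TPM, each library alone and a limit of 10 counts. The median ranged from 6.22 to 6.96. The paternal share of member TPM, 40.5%, was 41.2% by expected counts, 21.9% without Dlk1 and 52.7% with mixed members left out of the total. The number past 1.5-fold, 0, was 2 with a pseudocount of 0.1 (Kcnq1 and Zdbf2), 2 with TMM factors and 2 with DESeq2 size factors (Magel2 and Zdbf2 in both), all higher in replicate 2 and each on 108 counts or fewer in either library. Over all genes, 6.27% were higher and 2.10% lower past 1.5-fold with that pseudocount, 7.63% and 2.87% with TMM factors and 7.55% and 2.91% with DESeq2 size factors. The number was 0 with the spike-ins, posterior mean TPM, a minimum count of 100 and no filter. The leading transcript held 75% or more in 10 genes, against 18 at 50%, and the share of all genes at 75% was not worked out.

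By expected counts, which are not per length, 10 of 12 ratios moved and 1 reversed. The ratio of Meg3 to Dlk1 was 0.763, Mirg to Meg3 0.0190, Peg3 to Usp29 12934, Peg10 to Sgce 0.354, Mest to Copg2 27.1, Ndn to Magel2 45.1, Snrpn to Ube3a 0.0992, Phlda2 to Cdkn1c 0.0863, Cdkn1c to Kcnq1ot1 2.14 and Kcnq1ot1 to Kcnq1 83.4, and Nnat to Blcap reversed at 0.948. By posterior mean TPM, Mest to Copg2 was 28.5 and Kcnq1ot1 to Kcnq1 reversed at 0.738, and the cause was not tested. The Peg3 to Usp29 ratio rests on 2 and 1 counts. It was 7456 in replicate 1 and 18412 in replicate 2 by expected counts, 2401 and 5313 by deposited TPM (mean 3857), and 2112 by posterior mean TPM. All 12 ratios stayed on 1 side of 1 in both libraries. Depth limits Usp29 and Rasgrf1, with 3 counts or fewer. No paired analysis was possible because there is 1 group.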

Other observations

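Other genes listed as imprinted in some mouse tissue, and not members of the set, were in part abundant. Of 42 listed, 38 were in the tables and 23 reached 1 TPM in both libraries. Of protein-coding genes 52.2% did, and of all genes 27.9%. The 6 highest were Commd1 (151.47 and 144.22 TPM), Slc38a4 (68.39 and 72.85), Tspan32 (61.36 and 62.22), Nap1l4 (63.33 and 58.90), H13 (40.09 and 45.98) and Pon2 (42.21 and 39.25), and Kcnk9 was at 0. Commd1 is the host of the imprinted intronic gene Zrsr1, and Slc38a4 encodes an amino acid transporter of liver and placenta. Commd1 lay between Mest and Cd81 of the set by mean TPM.

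The proteins that keep imprints through cell division were also read. Of 15 genes, 13 reached 1 TPM in both libraries, where 52.2% of protein-coding genes did. Uhrf1, which brings the maintenance methyltransferase to newly copied DNA, stood highest at 79.03 and 74.96 TPM, and Dnmt1, that methyltransferase, at 39.82 and 40.13. Ctcf, which binds unmethylated control regions, stood at 51.55 and 48.78 and Trim28 at 44.53 and 51.28. Zfp445 (11.18 and 10.44) stood above Zfp57 (2.52 and 2.98), both zinc finger proteins that recruit Trim28 to imprinted regions. Arid4a (19.42 and 18.47), Smchd1 (15.40 and 15.68), Arid4b (14.78 and 15.81), Hells (15.79 and 12.19) and Setdb1 (11.49 and 10.68) lay in the range of Zfp445 to Dnmt1. Of the methyltransferases that set new marks, Dnmt3a was at 15.67 and 14.61 and Dnmt3b at 3.35 and 2.88. The germ cell factors Dppa3 and Dnmt3l stood at 0 and 0.0350 mean TPM. None of the 13 genes compared passed 1.5-fold between replicates, where 1.46% of all genes were higher and 0.437% lower.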
